A study of Mus musculus with 4 samples.

Results

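The genes described are 9 genes of V(D)J recombination and end joining, chosen by name: Rag1, Rag2 and Dntt, which are specific to lymphoid cells, and Xrcc4, Xrcc5, Xrcc6, Prkdc, Dclre1c and Lig4, which most cells use to join broken DNA. All 9 were found among the 26286 genes of the count table, and all 9 passed the filter on low counts that left 14912 tested genes. They were measured by RNA sequencing of bone marrow LSK cells (lineage-negative, Sca-1-positive, Kit-positive), the fraction that holds blood stem cells and multipotent progenitors. There were 2 libraries labelled Hhex-deleted, from C57BL/6 mice with a deletion of the homeobox gene Hhex, and 2 libraries labelled wild-type, from C57BL/6 mice. The age and sex of the mice, how the deletion was driven, and whether a library came from 1 mouse or several are not stated in the sources, so the p-values cover the spread between libraries, which may be technical.

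V(D)J recombination assembles antigen receptor genes in developing B and T cells. The RAG1 and RAG2 proteins form the recombinase that cuts beside V, D and J segments, and terminal deoxynucleotidyl transferase, encoded by Dntt, adds nucleotides without a template at the open coding ends. The breaks are then finished by non-homologous end joining: Ku70 (Xrcc6) and Ku80 (Xrcc5) hold the ends, the kinase DNA-PKcs (Prkdc) activates the nuclease Artemis (Dclre1c), which opens the hairpins, and XRCC4 with DNA ligase IV (Lig4) seals the join. Early lymphoid progenitors within the LSK fraction are known to express Rag1 and Dntt before they commit to a lineage.

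The promoter windows of the lymphoid-specific genes and of a pair of end-joining genes are shown because they differ in a feature that the choice of the 9 genes did not use, the number of CpG dinucleotides. The pair shown, Xrcc6 and Xrcc4, lies at the CpG-rich end of the end-joining genes. Those of Xrcc5 and Dclre1c, which hold fewer (9 and 12), are not shown. Each window runs from 250 bases before to 50 bases after the start annotated by RefSeq, on GRCm38.p6 and read on the gene's own strand, and capitals mark CpG dinucleotides. The Rag1 window lies at chr2:101649483-101649782 on the minus strand and the Rag2 window at chr2:101624462-101624761 on the plus strand. That of Dntt lies at chr19:41029025-41029324 on the plus strand, that of Xrcc6 at chr15:82016119-82016418 on the plus strand and that of Xrcc4 at chr13:90089559-90089858 on the minus strand. These positions belong to GRCm38, whereas the submitters' processing notes name mm9.
Rag1: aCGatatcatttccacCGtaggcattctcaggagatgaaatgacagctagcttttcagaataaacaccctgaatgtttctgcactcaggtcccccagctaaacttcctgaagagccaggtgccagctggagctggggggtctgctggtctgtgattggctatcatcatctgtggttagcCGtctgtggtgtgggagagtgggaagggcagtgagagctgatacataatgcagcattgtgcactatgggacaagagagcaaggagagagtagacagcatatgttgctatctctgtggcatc
Rag2: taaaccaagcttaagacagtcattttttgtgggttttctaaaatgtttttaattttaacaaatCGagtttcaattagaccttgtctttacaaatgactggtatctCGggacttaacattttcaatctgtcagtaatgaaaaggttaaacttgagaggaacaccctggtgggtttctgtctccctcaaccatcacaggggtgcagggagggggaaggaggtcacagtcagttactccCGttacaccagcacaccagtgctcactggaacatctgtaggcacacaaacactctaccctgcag
Dntt: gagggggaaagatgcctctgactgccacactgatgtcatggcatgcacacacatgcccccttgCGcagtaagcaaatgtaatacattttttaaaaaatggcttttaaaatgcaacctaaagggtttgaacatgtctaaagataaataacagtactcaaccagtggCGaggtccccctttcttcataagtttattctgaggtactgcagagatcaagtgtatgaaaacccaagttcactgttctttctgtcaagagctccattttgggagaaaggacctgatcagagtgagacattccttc
Xrcc6: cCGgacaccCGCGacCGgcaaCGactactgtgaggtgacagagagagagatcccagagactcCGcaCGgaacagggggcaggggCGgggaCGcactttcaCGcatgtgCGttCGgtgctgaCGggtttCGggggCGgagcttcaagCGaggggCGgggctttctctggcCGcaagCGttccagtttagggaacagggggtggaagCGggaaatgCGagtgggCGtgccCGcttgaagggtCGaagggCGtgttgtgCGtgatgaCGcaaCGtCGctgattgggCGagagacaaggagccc
Xrcc4: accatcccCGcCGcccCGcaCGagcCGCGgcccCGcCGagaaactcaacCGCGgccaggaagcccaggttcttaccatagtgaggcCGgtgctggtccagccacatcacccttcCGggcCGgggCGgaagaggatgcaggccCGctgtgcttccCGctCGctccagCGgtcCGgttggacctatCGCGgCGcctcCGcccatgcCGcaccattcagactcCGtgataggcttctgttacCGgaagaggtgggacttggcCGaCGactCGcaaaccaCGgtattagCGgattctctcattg

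A window was found for 8 of the 9 genes, Lig4 having 2 windows. The end-joining gene Prkdc had none, so the comparison leaves it out. The Rag1 and Rag2 windows each held 3 CpG dinucleotides and the Dntt window 2. Among all 32851 windows of the table, 31.4% held 3 or fewer and 23.3% held 2 or fewer, with a median of 7. The end-joining genes held more: 31 for Xrcc4, 30 for Xrcc6, 29 and 30 for the 2 Lig4 windows, 12 for Dclre1c and 9 for Xrcc5. All end-joining windows thus lay above the lymphoid-specific ones, with Xrcc5 and Dclre1c nearer to them than the rest. Short motifs were counted on both strands. The E-box CANNTG, the letters that E proteins such as E2A recognise, matched 4 times in the Rag1 window, 2 times in that of Rag2 and 3 times in that of Dntt, but 72.3% of all windows held a match. It also matched 2 times each in the Xrcc5, Dclre1c and both Lig4 windows, 1 time in that of Xrcc6 and 0 times in that of Xrcc4. The Runx core TGTGGT matched 2 times in the Rag1 window and in no other window of these genes, against a match in 16.8% of all windows. The GC box GGGCGG matched 3 times each in the Xrcc4 and Xrcc6 windows, 2 times in the first Lig4 window and 1 time in that of Dclre1c, and was held by 35.7% of all windows. A match is a run of letters and does not show that a factor binds there.

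**Figure D1:**
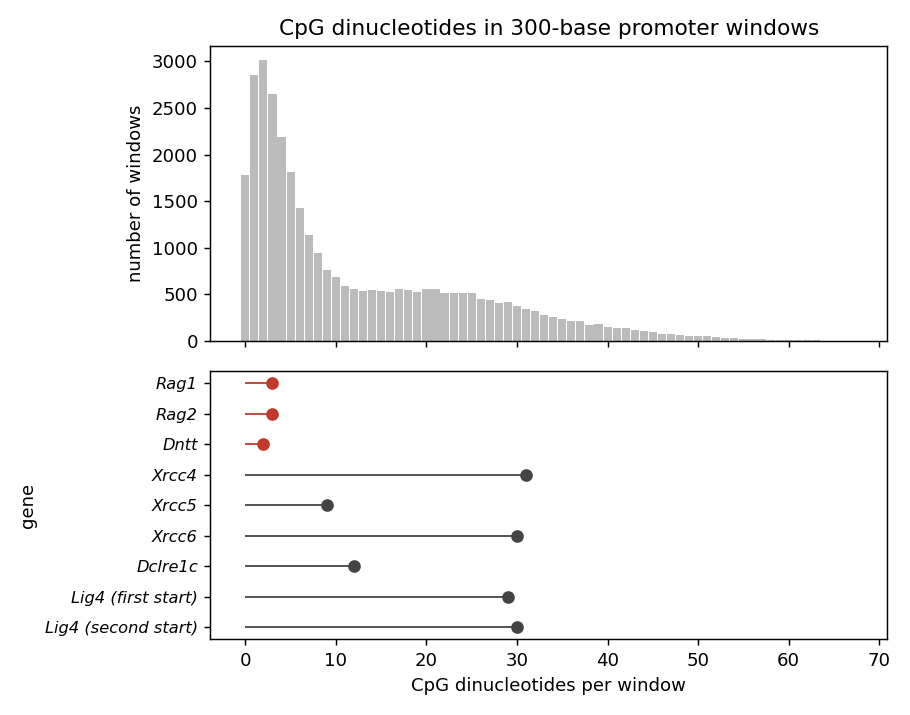
The upper panel gives the number of RefSeq promoter windows (vertical axis) by their number of CpG dinucleotides (horizontal axis), and the lower panel gives the CpG count of each window of the genes described, with lymphoid-specific genes in red and end-joining genes in grey. Rag1, Rag2 and Dntt sit at 2 or 3 and the end-joining windows between 9 and 31.

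Total counts lay between 27871827 and 29501591 per library, and a count of 3 was worth 0.0995 to 0.109 CPM (counts per standard library size, scaled by TMM factors). Kit stood at 566 to 698 CPM and Ly6a, which encodes Sca-1, at 20.7 to 42.5 CPM. Among T cell genes, Cd3e did not exceed 0.265 CPM, but Lck stood at 16.3 to 32.5 CPM. Labelled Hhex-deleted library 1 differed from the other libraries in sex-linked genes, with 2662 CPM of the X-inactivation transcript Xist against 1.89 to 2.66 CPM elsewhere and 0.343 CPM of the Y-linked Ddx3y against 124 to 138 CPM elsewhere. Gene-level reads of Hhex were more numerous in the libraries labelled Hhex-deleted (179 and 188 CPM, against 127 and 115 CPM in the wild-type libraries). A gene-level count includes exons outside a deleted part, so it does not check the deletion, and directions refer to the libraries as labelled.

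Rag1, Rag2 and Dntt were all higher in the libraries labelled Hhex-deleted, and none of the 6 end-joining genes passed the test. A gene was called when its p from edgeR's quasi-likelihood test, adjusted by the Benjamini-Hochberg method over all tested genes, was below 0.05. Of all tested genes 2.6% were called, 1.48% higher and 1.12% lower. In bulk libraries more cells that express a gene and more RNA per cell cannot be told apart. Each log2 fold change sets the libraries labelled Hhex-deleted over wild-type and carries an approximate standard error (SE). Rag1, Rag2 and Dntt all passed a log2 fold change of 2, as did 1.29% of tested genes, all in the higher direction.

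Rag1, which encodes the catalytic subunit of the recombinase, had 25.7 and 39.1 CPM in the libraries labelled Hhex-deleted, against 2.63 and 2.8 CPM in the wild-type libraries. Both libraries labelled Hhex-deleted lay far above both wild-type libraries, which lay close together. Behind them stand 750 and 1180 reads for the Hhex-deleted label, and 72 and 80 reads for wild-type. Its log2 fold change reached 3.58 ± 0.24 (SE), an 11.9-fold difference with a 95% interval of 7.88-fold to 18.1-fold, at an edgeR adjusted p of 0.00434. It ranked 45th of the 14912 tested genes by fold change.

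Rag2, whose product completes the recombinase and reads a histone mark, had 13.1 and 19 CPM in the libraries labelled Hhex-deleted, against 2.66 and 4.48 CPM in the wild-type libraries. The groups did not overlap, but the wild-type libraries differed by 0.75 on the log2 scale, more than for any other gene of the 9. Its log2 fold change reached 2.16 ± 0.32 (SE), a 4.48-fold difference with a 95% interval of 2.6-fold to 7.72-fold, at an edgeR adjusted p of 0.0336. The call was lost without labelled Hhex-deleted library 2 (adjusted p = 0.0733) and without wild-type library 1 (adjusted p = 0.0525), where the log2 fold change was 1.88 and 1.84. It was also lost by limma-voom (adjusted p = 0.0608) and by limma on the deposited log2 RPKM values (adjusted p = 0.0882).

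Dntt was by far the most abundant of the lymphoid-specific genes, with 475 and 698 CPM in the libraries labelled Hhex-deleted, against 135 and 153 CPM in the wild-type libraries. Every library labelled Hhex-deleted lay above both wild-type libraries, and wild-type LSK cells already held abundant Dntt RNA (3688 and 4358 reads). Its log2 fold change reached 2.03 ± 0.2 (SE), a 4.09-fold difference with a 95% interval of 2.83-fold to 5.9-fold, at an edgeR adjusted p of 0.021. Among the 2743 tested genes whose mean over all libraries reached 100 CPM, 3 had a log2 fold change at least as large, Dntt included. Xist was another of these 3, high in labelled Hhex-deleted library 1 alone. By mean CPM Dntt ranked 130th of the tested genes in the libraries labelled Hhex-deleted and 1671st in wild-type. The call was lost without wild-type library 1 (adjusted p = 0.084) and without wild-type library 2 (adjusted p = 0.132), at log2 fold changes of 1.94 and 2.13, and by limma on the deposited log2 RPKM values (adjusted p = 0.0672).

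**Figure D2:**
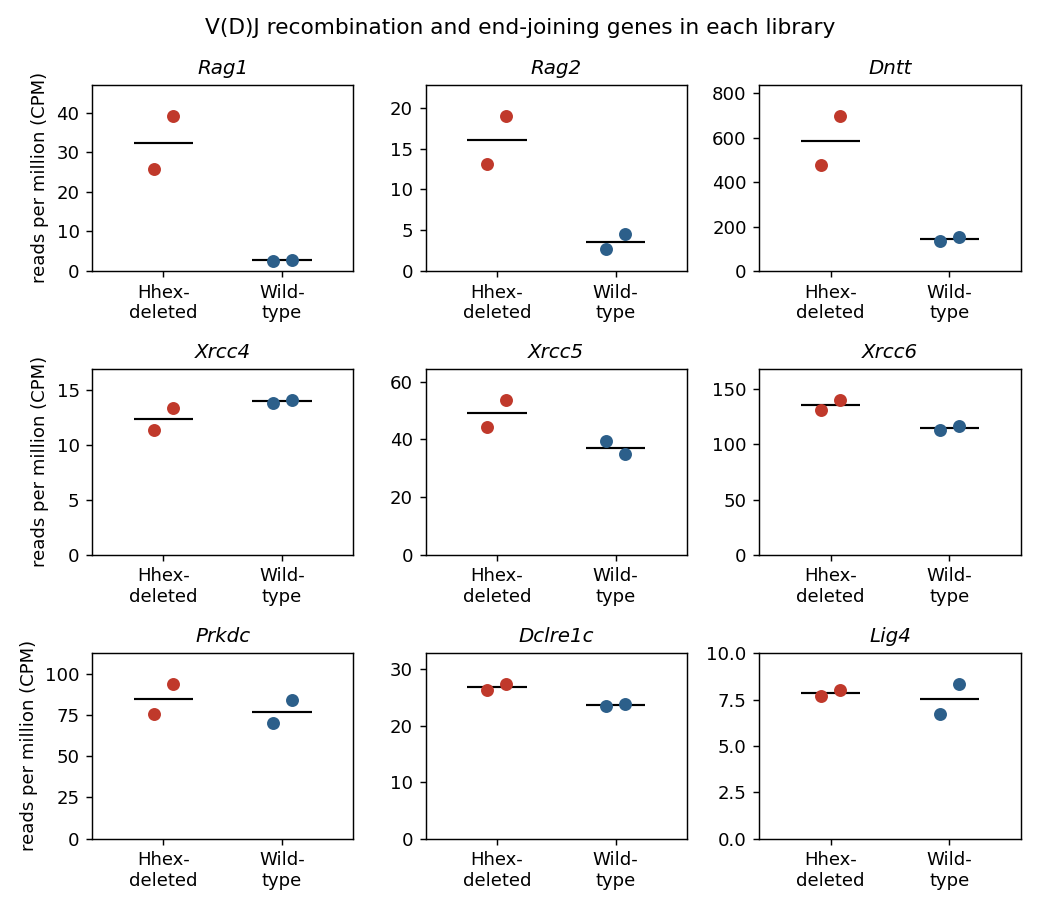
CPM (vertical axis, linear, starting at 0) of each of the 9 genes, with a point for each library and a line at the group mean, libraries labelled Hhex-deleted in red on the left and wild-type in blue on the right. Rag1, Rag2 and Dntt are separated widely between groups, whereas the groups lie close together for the 6 end-joining genes.

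The lymphoid-specific genes also differed between the libraries labelled Hhex-deleted. Library 2 exceeded library 1 by 0.61 for Rag1, 0.54 for Rag2 and 0.55 for Dntt on the log2 scale. Across 11295 genes whose mean reached 5 CPM, the median absolute log2 ratio between these libraries was 0.129, and 3.16% of genes had a ratio at least that of Dntt. The end-joining genes differed between them by 0.06 (Dclre1c) to 0.31 (Prkdc), again with library 2 higher in each case. Leaving out library 1, which differs in sex-linked genes, gave log2 fold changes of 3.85 for Rag1, 2.41 for Rag2 and 2.28 for Dntt, and all 3 calls held. Leaving out library 2 gave 3.25, 1.88 and 1.73, and the calls of Rag1 and Dntt held (adjusted p = 0.00218 and 0.00279).

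Markers of B cell precursors moved with these genes. Of 8 committed B cell markers, all tested, 4 rose and none fell, with a median log2 fold change of 1.81 against -0.01 over all tested genes. Among them were the surrogate light chain genes Igll1 (18.6 and 22.5 CPM in the libraries labelled Hhex-deleted, against 2.01 and 2.31 CPM in the wild-type libraries) and Vpreb1, and Cd79a, a signalling chain of the B cell receptor. The Cd79a call was lost by limma-voom (adjusted p = 0.0748) and by limma on the deposited log2 RPKM values (adjusted p = 0.0834). In edgeR it was also lost with library totals alone (adjusted p = 0.0565) and with no robust estimation (adjusted p = 0.0512). Of the alternative runs 7 lost it, some by leaving out a single library. With a library left out, the log2 fold change of Cd79a ran from 2.07 to 2.93. Vpreb1 and Vpreb2 are near-identical, so reads may be split between them. Summed over the list, the level was 102 and 126 CPM in the libraries labelled Hhex-deleted, against 39.8 and 44 CPM in the wild-type libraries, and no marker was at 0 reads in any library. Most of the wild-type sum was Cd79b, which was not called (log2 fold change 0.32, edgeR adjusted p = 0.177). It had 37.2 and 40.5 CPM in the libraries labelled Hhex-deleted, against 30.1 and 32.2 CPM in the wild-type libraries. Markers of T cells were mostly absent: of 8, 5 were too low to be tested, and the sum was 20.8 and 37.9 CPM in the libraries labelled Hhex-deleted, against 20.2 and 21.7 CPM in the wild-type libraries, of which Lck, a kinase gene, made up most. None of the 3 tested T cell markers passed edgeR's test. Cd2 alone had an unadjusted p under 0.05, and neither DESeq2 nor limma-voom called any (0 each), but 1 was called without labelled Hhex-deleted library 1. Of 8 lymphoid-primed progenitor markers 1 rose, the interleukin-7 receptor gene Il7r, and all 8 log2 fold changes were positive with a median of 0.55. Without labelled Hhex-deleted library 1, 5 of these 8 rose, and DESeq2 called 3 higher with all libraries. Ccr9, a chemokine receptor gene of that list named after its values were seen, had 5.41 and 64.8 CPM in the libraries labelled Hhex-deleted, against 2.92 and 2.24 CPM in the wild-type libraries, so it was high in library 2 alone. The part of these cell types in the result was not tested.

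Xrcc6 and Xrcc5, which encode the Ku subunits, were the end-joining genes with the lowest p-values. Xrcc5 had 44.4 and 53.8 CPM in the libraries labelled Hhex-deleted, against 39.3 and 34.8 CPM in the wild-type libraries. That is a log2 fold change of 0.41 ± 0.12 (SE), and edgeR gave an unadjusted p of 0.0163 and an adjusted p of 0.177. Xrcc6 had 131 and 140 CPM in the libraries labelled Hhex-deleted, against 113 and 117 CPM in the wild-type libraries. For both, the groups did not overlap, as was true of 45.5% of all tested genes. For Xrcc6 the log2 fold change came to 0.24 ± 0.08 (SE), and edgeR gave an unadjusted p of 0.0213 and an adjusted p of 0.203. The 95% intervals of the fold difference, 1.08 to 1.63 for Xrcc5 and 1.03 to 1.34 for Xrcc6, ended below the intervals of Rag1, Rag2 and Dntt.

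Prkdc, encoding the kinase that Ku recruits, had 75.9 and 94.1 CPM in the libraries labelled Hhex-deleted, against 69.9 and 84.4 CPM in the wild-type libraries. The groups overlapped, and the log2 fold change of 0.14 had a 95% interval of -0.21 to 0.49. Dclre1c, the Artemis nuclease gene, had 26.4 and 27.5 CPM in the libraries labelled Hhex-deleted, against 23.5 and 23.8 CPM in the wild-type libraries, a log2 fold change of 0.19 (95% interval -0.05 to 0.43). Its groups were narrow and did not overlap, but the difference did not pass the test (edgeR adjusted p = 0.446).

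The ligation genes were the lowest of the end-joining group in CPM. Xrcc4 had 11.3 and 13.4 CPM in the libraries labelled Hhex-deleted, against 13.8 and 14.1 CPM in the wild-type libraries, and was the only one of the 9 genes with a negative log2 fold change (-0.18, 95% interval -0.54 to 0.19). Lig4 had 7.67 and 8.03 CPM in the libraries labelled Hhex-deleted, against 6.71 and 8.37 CPM in the wild-type libraries. Its groups overlapped, with a log2 fold change of 0.06 (95% interval -0.41 to 0.52). Of the 6 end-joining genes, 2 had an edgeR unadjusted p under 0.05, both higher, against 15.8% of all tested genes in either direction and 7.59% in the higher one. Groups did not overlap for 4 of the 6, of which 3 were higher (21.9% of all tested genes) and 1 lower (23.7%). Neither DESeq2 nor limma-voom called any of the 6 (0 each). Their median log2 fold change was 0.17. The intervals of Xrcc4, Prkdc, Dclre1c and Lig4 reach from -0.54 to 0.52 on the log2 scale, so differences within them were not detectable with these libraries.

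Per gene length, the order of the 9 genes changed between groups. In the authors' log2 RPKM values, which are levels per gene length and share a single distribution across libraries, Rag1 averaged 2.34 ± 0.42 in the libraries labelled Hhex-deleted and -1.2 ± 0.03 in wild-type (SD, n = 2 each). Rag2 averaged 2.31 ± 0.35 in the libraries labelled Hhex-deleted and 0.13 ± 0.5 in wild-type (SD, n = 2 each). Dntt averaged 8.19 ± 0.45 in the libraries labelled Hhex-deleted and 6.15 ± 0.13 in wild-type (SD, n = 2 each), the highest of the 9 in every library. In wild-type, Dntt was followed by Xrcc6 (5.84), Xrcc5 (3.93), Xrcc4 (3.26), Prkdc (2.68), Dclre1c (2.01), Lig4 (0.97), Rag2 and Rag1. No neighbours in that order overlapped in the wild-type libraries. In the libraries labelled Hhex-deleted Lig4 was last (1.02), and Rag1 and Rag2 stood beside Dclre1c (2.2) with overlapping values. Prkdc (2.83) and Xrcc4 (3.07) overlapped there too. The level of Rag1 per length was 0.999 and 1.05 times that of Rag2 in the libraries labelled Hhex-deleted, against 0.502 and 0.318 times in wild-type, from counts divided by gene length. Dntt stood at 3.6 and 4.93 times the level of Xrcc6 in the libraries labelled Hhex-deleted and at 1.18 and 1.3 times in wild-type. Counts divided by gene length gave the same order as the deposited values in each library.

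**Figure D3:**
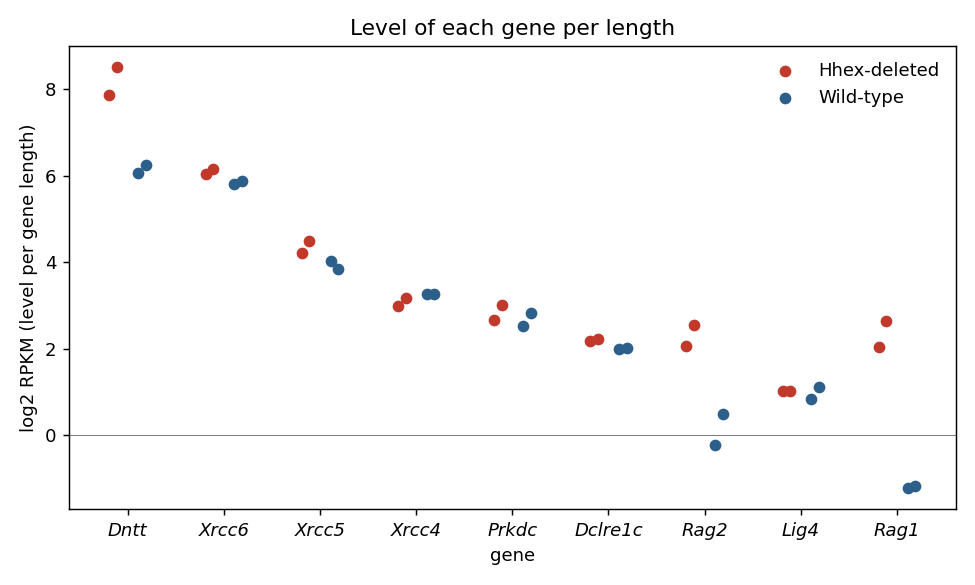
Authors' log2 RPKM (vertical axis, level per gene length) of the 9 genes, ordered by their mean over all libraries, with a point for each library, libraries labelled Hhex-deleted in red on the left of each gene and wild-type in blue on the right. Dntt is highest in all 4 libraries, and Rag1, lowest in wild-type, lies near Dclre1c in the libraries labelled Hhex-deleted.

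Rag1 and Rag2 lie side by side on chromosome 2, and in the GENCODE M21 annotation the gene B230118H07Rik (Iftap) overlaps both. It shares 80 exonic bases with Rag1 on the same strand and 208 with Rag2 on the opposite strand. The strand setting of the authors' counting is not given, so reads in the shared bases cannot be assigned between these genes. B230118H07Rik itself had 33 and 35.3 CPM in the libraries labelled Hhex-deleted, against 40.3 and 38.4 CPM in the wild-type libraries, a log2 fold change of -0.2 (edgeR adjusted p = 0.363). Of 5 neighbours of the Rag genes, 1 fell and none rose. That gene was Ldlrad3, with 27.1 and 23.4 CPM in the libraries labelled Hhex-deleted, against 41 and 42 CPM in the wild-type libraries (log2 fold change -0.72 ± 0.11 SE, edgeR adjusted p = 0.0305), a call lost without labelled Hhex-deleted library 2 (adjusted p = 0.0562), wild-type library 1 (0.0952) or wild-type library 2 (0.157), and by limma-voom (0.0543) and limma on the deposited log2 RPKM values (0.0948). Traf6, a signalling adaptor gene beside Rag1, stood at 0.01, Commd9 at -0.07 and Prr5l at 0.03, the signs of the last pair depending on which library was left out.

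Of the end-joining genes, Xrcc4, Xrcc6 and Dclre1c overlap a neighbour on the opposite strand, and Prkdc and Lig4 have a start close to that of a divergent neighbour. For these neighbours, log2 fold changes were 0.04 for Tmem167 (beside Xrcc4), 0.15 for Pppde2, now Desi1 (beside Xrcc6), 0.06 for Mcm4 (beside Prkdc), -0.11 for Suv39h2 (beside Dclre1c) and -0.01 for Abhd13 (beside Lig4). None of these 5 genes had an edgeR unadjusted p under 0.05 (0 of 5), and none was called by DESeq2 or limma-voom (0 each). Tmem167, Desi1 and Suv39h2 overlap exons of their partner, by 112, 344 and 357 bases, so those reads may be shared.

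Other factors of end joining were examined as a list of 12, all tested. Of these 1 rose and none fell, with a median log2 fold change of -0.01. The gene that rose was Polm, which encodes DNA polymerase mu, the closest relative of the Dntt product and a gap-filling enzyme of V(D)J joining. Polm had 24.6 and 19.3 CPM in the libraries labelled Hhex-deleted, against 6.42 and 6.27 CPM in the wild-type libraries. Unlike Rag1, Rag2 and Dntt, it was higher in library 1 than in library 2 of the libraries labelled Hhex-deleted. The log2 fold change of Polm came to 1.79 ± 0.17 (SE) at an edgeR adjusted p of 0.0105, and the call held whichever library was left out (adjusted p = 0.00659 to 0.0317) but was lost by limma on the deposited log2 RPKM values (adjusted p = 0.0611). Poll, encoding the related polymerase lambda, had 33.1 and 29.4 CPM in the libraries labelled Hhex-deleted, against 33.1 and 34 CPM in the wild-type libraries, a log2 fold change of -0.1. Wrn, a helicase gene, stood at 0.22 and Aplf, an end-joining scaffold gene, at 0.28, at edgeR adjusted p-values of 0.207 and 0.315. Nhej1 (XLF) and Paxx (listed as BC029214), which act with the ligation complex, stood at -0.3 and -0.05.

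**Figure D4:**
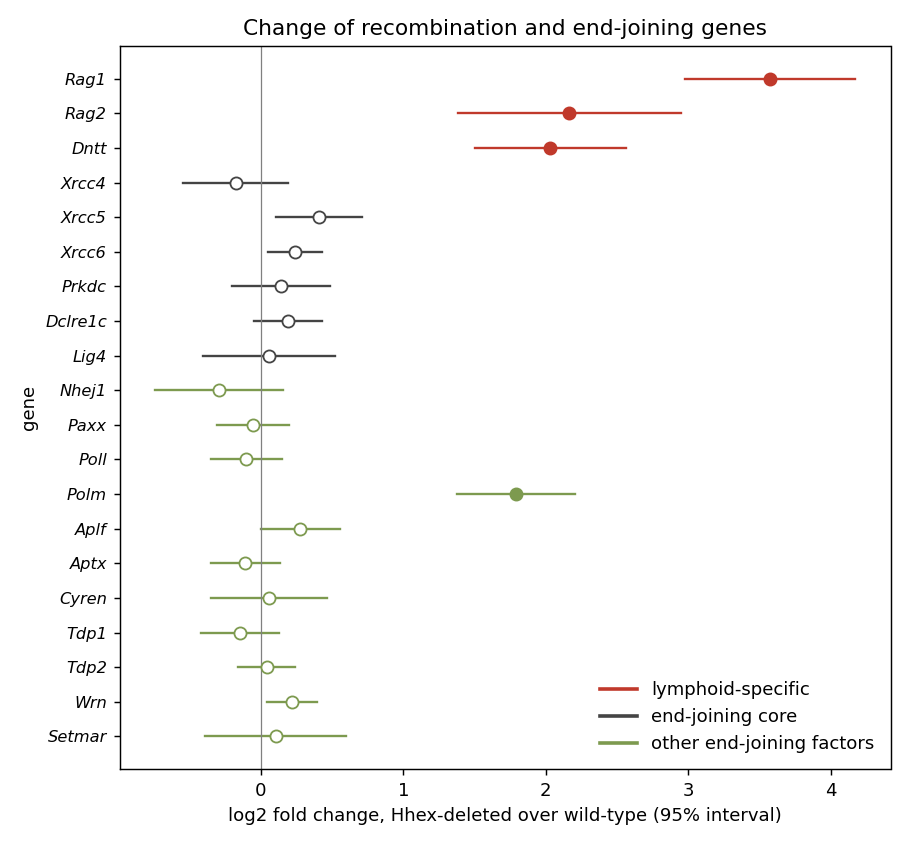
Log2 fold change, libraries labelled Hhex-deleted over wild-type (horizontal axis), with its 95% interval for the lymphoid-specific genes (red), the end-joining genes (grey) and the other end-joining factors reported here (green). Filled points passed the test: Rag1, Rag2, Dntt and Polm, and of the lists drawn they are the genes beyond a log2 fold change of 1, which 3.39% of tested genes passed upward.

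Genes of the neighbouring repair pathways did not pass the test. Of 7 RAG cofactors and partners, which include the DNA-bending proteins Hmgb1 and Hmgb2, 0 were called, with a median of -0.03 and a range of -0.11 to 0.12. Of 15 tested genes that signal DNA breaks 0 were called, with a median of 0.02. The lowest p among them was that of Atm, the kinase that responds to RAG breaks, with 144 and 158 CPM in the libraries labelled Hhex-deleted, against 120 and 129 CPM in the wild-type libraries (log2 fold change 0.28, edgeR adjusted p = 0.189). Of 8 alternative end-joining genes 0 were called (median -0.01), Lig1 standing at 0.12, Parp1 at 0.08 and Xrcc1 at -0.08. Of 15 homologous recombination genes 0 were called (median 0.02), Xrcc3 standing at -0.22, Dna2 at -0.16 and Rad52 at 0.19. Over these 4 lists 1 gene, Atm, had an edgeR unadjusted p under 0.05, and no gene was called by DESeq2 or limma-voom (0 each).

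Transcription factors tied to the control of Rag1, Rag2 or Dntt were examined as a list of 23, of which 22 were tested. Of these 4 rose and none fell, with a median of 0.32. DESeq2 called 6 higher and 1 lower, limma-voom 3 higher, and limma on the deposited log2 RPKM values 0, with adjusted p-values there of 0.0669 for Ebf1, 0.0662 for Pax5, 0.0529 for Lef1 and 0.0948 for Gfi1b. Ebf1, a B lineage specification factor, had 7.26 and 9.75 CPM in the libraries labelled Hhex-deleted, against 0.547 and 1.02 CPM in the wild-type libraries (log2 fold change 3.43 ± 0.35 SE, edgeR adjusted p = 0.013). Pax5, the B lineage commitment factor, had 2.16 and 3.25 CPM in the libraries labelled Hhex-deleted, against 0.109 and 0.21 CPM in the wild-type libraries (edgeR adjusted p = 0.0169). Lef1, which binds DNA in the Wnt pathway and in lymphoid precursors, had 6.89 and 7.33 CPM in the libraries labelled Hhex-deleted, against 0.365 and 0.175 CPM in the wild-type libraries. Gfi1b, a repressor of Rag genes, rose by 0.94 ± 0.15 (SE, edgeR adjusted p = 0.0421), a call lost without wild-type library 1 (adjusted p = 0.0853) and without wild-type library 2 (adjusted p = 0.191), and by limma-voom (adjusted p = 0.0738). The factors with broad expression in progenitors did not pass edgeR's test. Foxo3 stood at 0.32, Satb1 at 0.66 and the related repressor Gfi1 at -0.86. Foxo1, Ikzf1 and Tcf12 stood at 0.51, 0.25 and 0.22, each with an edgeR unadjusted p under 0.05. Tcf3, Runx1 and Myb stood at 0.11, 0.16 and 0. DESeq2 called Foxo3 and Satb1 higher (adjusted p = 0.0402 and 0.000974) and Gfi1 lower (adjusted p = 0.000198). Of the 22 tested factors, 9 had an edgeR unadjusted p under 0.05 in the higher direction and 1 in the lower. Of all tested genes, 7.59% did so in the higher direction and 15.8% in either.

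**Figure D5:**
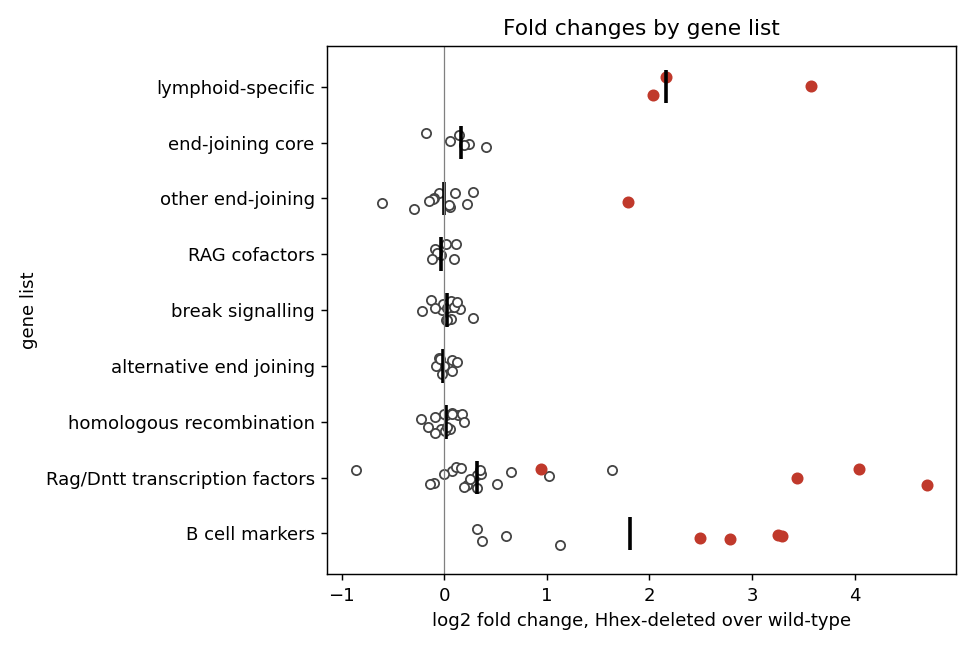
Log2 fold change, libraries labelled Hhex-deleted over wild-type (horizontal axis), of the tested genes in each list, with called genes in red, genes not called as open points and the list median as a black bar. The repair lists lie close to 0 apart from the other end-joining list, in which Polm stands at 1.79. The lists of lymphoid-specific genes, of transcription factors and of B cell markers reach beyond 3.

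The loci on which the recombinase acts were measured through their constant genes. The list held 14 genes, antigen receptor constant genes and Ptcra, the pre-T receptor gene, of which 11 were tested, and none passed edgeR's test, DESeq2 or limma-voom (0 each). An unadjusted p under 0.05 was reached by 2 of them, both higher, and 2 were called lower without wild-type library 1. Ighm, the mu heavy chain gene, had 571 and 578 CPM in the libraries labelled Hhex-deleted, against 687 and 1209 CPM in the wild-type libraries. The wild-type libraries lay far apart and above both others, and the log2 fold change of -0.72 had an edgeR adjusted p of 0.392. Ighd stood at 1.13 and Iglc1 at 0.65 (edgeR adjusted p = 0.157 and 0.255). Reads of these genes can come from germline or from joined loci and were not told apart.

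Genes nearest to Rag1 and Dntt in pattern were found by the Euclidean distance between log2 CPM values centred on each gene's mean over the 4 libraries. This distance compares the group difference and the spread together. A prior count of 2 was added before taking logs, which shrinks the differences of genes near 0 reads. Among the nearest to Rag1 were Steap4 (distance 0.247), the pre-B receptor gene Vpreb3 (0.256), Gfra2 (0.282) and an unnamed gene with Entrez identifier 100502594 (0.295). Vpreb3 had 11.9 and 15.7 CPM in the libraries labelled Hhex-deleted, against 0.948 and 1.26 CPM in the wild-type libraries. Steap4 and the unnamed gene had 3 and 0 wild-type reads over both libraries, and Dtx1, Cdh5 and Hrh4 had 1 to 3 in each wild-type library. In the edgeR fit Steap4 and the unnamed gene had log2 fold changes of 4.43 and 7.14, against 3.58 for Rag1. Dtx1, Cdh5 and Hrh4 had 2.93, 2.67 and 3.14, against 2.03 for Dntt, and did not pass the test (edgeR adjusted p = 0.0699, 0.0585 and 0.082). Nearest to Dntt were Dtx1 (0.212), Pou6f1 (0.218), Uchl1 (0.248), Cdh5 (0.248) and Hrh4 (0.256). Of these Pou6f1, a POU-domain factor gene, had 18.5 and 22.3 CPM in the libraries labelled Hhex-deleted, against 4.49 and 5.57 CPM in the wild-type libraries, and Uchl1, a ubiquitin hydrolase gene, had 12.4 and 17.7 CPM in the libraries labelled Hhex-deleted, against 3.47 and 3.18 CPM in the wild-type libraries. Rag2 ranked 29th among genes near Dntt (0.424) and 103rd near Rag1 (1.42).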

How the data were processed

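Per the labels' protocols, RNA was extracted by RNeasy and sequenced from TruSeq libraries. The authors deposited raw read counts per Entrez gene with gene lengths, and log2 RPKM values for 12662 genes. Subread, featureCounts, limma and the build mm9 are named without roles or versions, per the submitters' processing notes. No source gives the strand setting or filters. With length added back, the sorted log2 RPKM values had a median range of 0.000809 across libraries, so the deposited values share a single distribution.

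Groups came from sample titles. The counts were fitted by edgeR 4.0.16 (R 4.3.3): filterByExpr (minimum count 10, minimum total 15), TMM factors, and a robust quasi-likelihood fit with group as its only term, tested on simulated data. The biological coefficient of variation was 16.3%. SE is the log2 fold change over the square root of F, and 95% intervals use it with the fit's degrees of freedom. DESeq2 1.42.0, limma-voom (limma 3.58.1), limma on log2 RPKM, other scalings, no filter, no robust estimation, a replicate block and leaving out each library were the alternatives. Symbols came from the deposited tables or, for the rest, from RefSeq (GRCm38), with 24255 of 26286 identifiers named. Of the entries in the gene lists 1 was not matched. The genes described and all lists were chosen with earlier results of these data known. Named genes are the 9 genes, every called gene of a list, up to 3 others by lowest p, and the 5 nearest in pattern to Rag1 and Dntt. Traf6, Poll, Nhej1, Paxx, Foxo1, Ikzf1, Tcf12, Tcf3, Runx1, Myb, Ccr9, Hmgb1, Hmgb2 and the opposite-strand neighbours were named outside that rule, after their values were seen. Some genes that the rule selects are not reported here. Intervals and floors cover counting error and the spread of these libraries only.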

Additional observations from a re-analysis of the deposited data

How the results depend on the processing

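Of the lymphoid-specific genes 3 were called in the full comparison, with DESeq2 size factors, with no low-count filter, with DESeq2, with no robust estimation and with the replicate block. The count was 2 with library totals alone and with limma-voom and 1 with limma on the deposited log2 RPKM values, and ran from 1 to 3 when a library was left out. Rag1 was the gene called throughout, with log2 fold changes of 3.25 to 3.85. Of the end-joining genes 0 were called under every alternative run. Of all tested genes 388 were called in the full comparison, 251 with library totals alone, 556 with no low-count filter, 988 with DESeq2, 202 with limma-voom, 40 with limma on log2 RPKM and 259 with no robust estimation, and 124 to 597 when a library was left out. The cause of these differences was not tested. With the replicate block 315 genes were called, among them 3 lymphoid-specific and 0 end-joining genes. Under the replicate block the call of Ldlrad3 was lost (adjusted p = 0.0542). Gfi1 was called lower under the block (adjusted p = 0.0307), as it was by DESeq2 (adjusted p = 0.000198). Same-numbered libraries deviated together (Pearson correlation 0.351 across 10180 genes), but no label ties the numbers to a shared litter or day. Some log2 fold changes near 0 took both signs when a library was left out: Prkdc (-0.017 to 0.29), Lig4 (-0.092 to 0.23), Kpna2 (-0.28 to 0.079), Parp1 (-0.0093 to 0.17), Xrcc1 (-0.18 to 0.018), Commd9 (-0.17 to 0.019), Prr5l (-0.31 to 0.49), Tmem167 (-0.0087 to 0.101), Mcm4 (-0.0085 to 0.14) and Abhd13 (-0.072 to 0.071). Abhd13 also stood at 0.0012 with DESeq2 size factors and with DESeq2, 0.017 with library totals and 0.0095 with limma on log2 RPKM. Scaling by DESeq2 size factors or library totals moved the median of all genes by 0.01 and 0.02 on the log2 scale.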
